A study of Mus musculus with 4 samples.

Results

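The genes described here are 36 genes of cholesterol and fatty acid synthesis, measured in splenic B cells at rest and after activation. They were chosen by name from the known pathways, with earlier results of these data known, and the rule uses no measured value. They comprise 6 enzymes of the mevalonate segment, 11 enzymes from squalene to cholesterol, 5 genes of the sterol sensing system, 4 enzymes that build fatty acids, 7 enzymes that elongate or desaturate them, and 3 genes of sterol transport. All 36 were present in the gene count table, which held 41342 named genes. All 36 also passed the minimum for testing, 50 counts on average per library, which 11286 genes met, though Fads2 did so only through its activated libraries.

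RNA came from CD43-depleted splenocytes, that is, spleen cells from which those carrying CD43 were removed to enrich resting B cells. The study asked what the palindromic 3'RR, the enhancer region at the end of the immunoglobulin heavy chain (IgH) locus, does in B cells, and its RNA-seq compared mutants of that region before and after LPS. All mice were males of strain 129, 8 to 12 weeks old. ΔleftPAL mice lack the enhancers hs3a and hs1,2 together with the inverted sequences between them, whereas ΔIRIS mice keep hs1,2 and an inverted copy of hs3a and lack those intervening sequences. Both lines were derived with Cre after gene targeting, so both carry a targeted 3'RR, and no unmodified (wt) library was analysed here. Each genotype gave 1 library of freshly purified resting cells and 1 of cells activated in medium with fetal calf serum and LPS (5 μg per ml, 48 h). LPS, a lipopolysaccharide of the outer membrane of Gram-negative bacteria, drives B cells to divide and to secrete antibody. Each library holds pooled material, of 4 animals per the labels. The descriptions of the pooling differ. The resting and the activated library of a genotype come from the same mice and are not independent of each other.

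With 1 library per group, a comparison of the genotypes compares 2 libraries and has no replicate check. The change with LPS was tested over both genotypes, with the disagreement between the genotypes as its error. LPS and the 48 h of culture cannot be told apart, because no library of cells cultured without LPS was analysed here. In bulk RNA, fewer cells of a type and less RNA per cell cannot be told apart either. Counts assigned to named genes were 23615496 to 29776108 per library, and 3 counts, the smallest level taken as detected, correspond to 0.102 to 0.123 CPM (counts scaled to a common library size with TMM). The markers of B cells stood at a summed 2736 and 2358 CPM at rest and 1833 and 1936 CPM after LPS in ΔleftPAL and ΔIRIS, and none of the 5 was at 0 in any library. Markers of other cells were present at rest and were largely gone after LPS: the 6 erythroid markers went from 41310 and 28660 CPM to 58.2 and 124 CPM, the 8 myeloid markers from 382 and 504 CPM to 15.6 and 21.5 CPM, and the 6 T cell markers from 11.1 and 8.57 CPM to 0.111 and 0.137 CPM. The 8 markers of dividing cells went from 572 and 699 CPM to 4462 and 4981 CPM.

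Cholesterol is made from acetyl-CoA through mevalonate, the isoprenoid farnesyl diphosphate, and squalene. Cells sense sterol in the membrane of the endoplasmic reticulum: when sterol is scarce, the escort protein SCAP carries the membrane-bound transcription factors SREBP to the Golgi, where they are cut and released to switch on the genes of this pathway, and when sterol is plentiful the INSIG proteins hold SCAP back. Surplus sterol is handled by the nuclear receptors LXR, which raise the efflux pumps ABCA1 and ABCG1. Dividing lymphocytes need sterol and fatty acids for new membrane, and activated B cells also enlarge their endoplasmic reticulum.

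After LPS most of the pathway was higher in both genotypes. Of the 36 genes, 29 were higher (adjusted p under 0.05, edgeR's quasi-likelihood test with Benjamini-Hochberg adjustment over all genes tested), whereas 36.1% of all genes tested were higher. A further 2 were lower, the efflux pumps Abca1 and Abcg1, against 27.4% of all genes, and 5 did not pass the test. The median log2 fold change over the 36 was 1.48, and over all genes tested 0.12. In the simpler count with no test, 20 of the 36 were at least 2-fold higher in each genotype taken alone, as were 17.3% of all genes, and 2 were at least 2-fold lower in each, as were 13.1% of all genes. These values are levels relative to the library, and markers of dividing cells rose in the same libraries, of which all 8 were higher. The part of cell division in the change of the lipid genes was not tested.

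**Figure D1:**
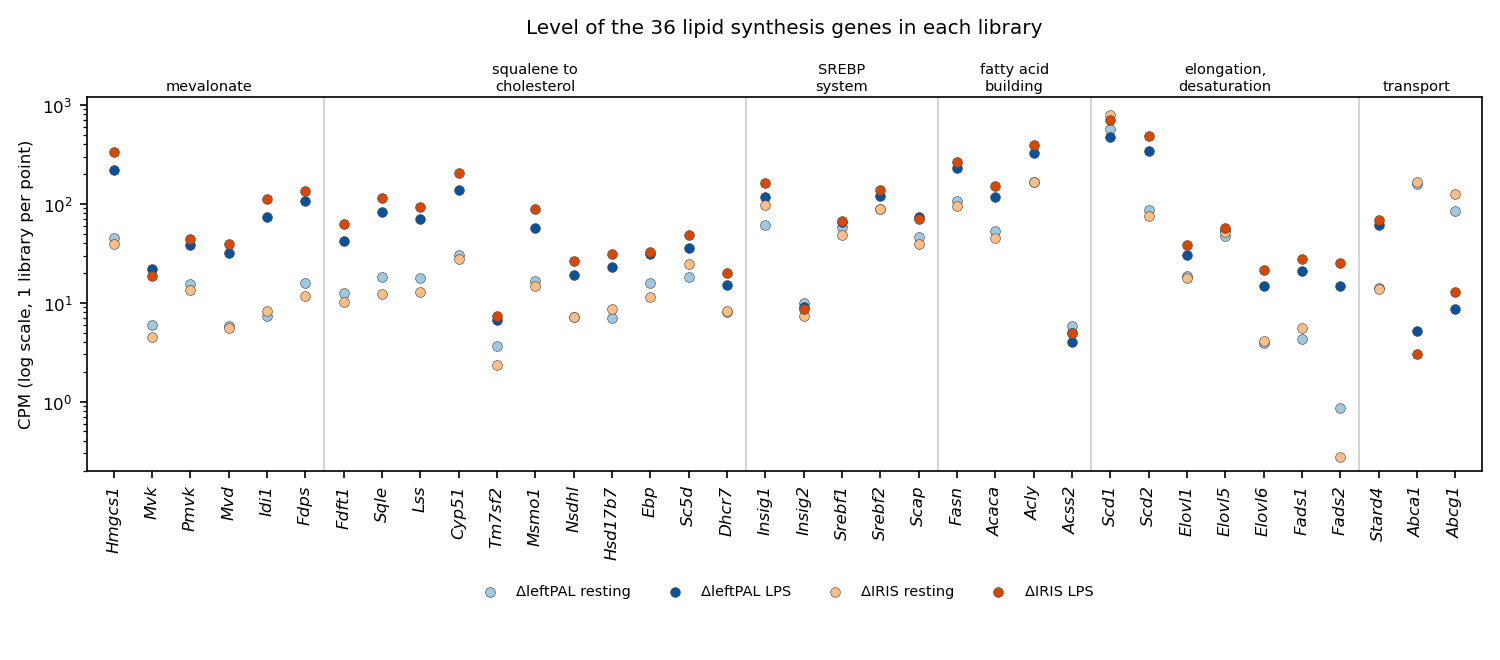
Level of each of the 36 genes in the 4 libraries, in CPM on a log axis, grouped by role; each point is 1 library. For most synthesis genes both LPS libraries lie above both resting libraries, with Hmgcs1 at 44.8 and 39.2 CPM at rest and 219.9 and 332 CPM after LPS, whereas Abca1 and Abcg1 lie the other way round.

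The mevalonate segment moved as a block: all 6 enzymes were higher after LPS, against 36.1% of all genes tested. The log2 fold changes of the 6 were 1.504 to 3.53, with a median of 2.67. Hmgcs1 encodes the cytosolic HMG-CoA synthase, which makes the substrate that the next step turns into mevalonate. It was at 44.8 CPM in resting and 219.9 CPM in LPS-activated ΔleftPAL cells, and at 39.2 and 332 CPM in ΔIRIS cells. Both activated libraries thus lay far above both resting ones, a log2 fold change of 2.69 ± 0.23 (SE; adjusted p = 0.000905 by edgeR), or 6.45-fold. Idi1, the isomerase that readies the isoprenoid building block for chain growth, went from 7.37 to 72.9 CPM in ΔleftPAL and from 8.29 to 110.7 CPM in ΔIRIS. That was the largest change of the segment, 3.53 ± 0.17 on the log2 scale, or 11.5-fold (edgeR, adjusted p = 0.000158).

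Fdps joins the building blocks into farnesyl diphosphate, the branch point to sterols, prenylated proteins and ubiquinone. Its level rose from 16.01 to 105.5 CPM in ΔleftPAL and from 11.6 to 133 CPM in ΔIRIS (log2 3.12 ± 0.24, adjusted p = 0.000660 by edgeR). The decarboxylase Mvd rose from 5.86 to 31.6 CPM and from 5.504 to 39.5 CPM (2.64 ± 0.18). The kinases of the segment changed less: Mvk, mevalonate kinase, went from 6.02 to 21.8 CPM and from 4.54 to 18.4 CPM (1.94 ± 0.18), and Pmvk, phosphomevalonate kinase, from 15.5 to 38.2 CPM and from 13.4 to 43.9 CPM (1.504 ± 0.16).

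The promoters of the members were read from RefSeq (build GRCm38.p6; 250 bases before to 50 after each start), which held 28 of the 36 genes. Sqle, Fdps, Fdft1, Scd1, Scd2, Fads1, Stard4 and Abcg1 had no entry. A gene with more than 1 start was counted if any of its windows held the motif. TCACNCCAC, a form of the sterol regulatory element to which SREBP binds, was in 1 of the 28, that of Hmgcs1, against 1.44% of 27025 genes with a promoter in the table. CCAAT, the box bound by NF-Y, which is known to act beside SREBP, was in 23 of the 28 (82.1%), against 41.1% of all genes and 43.6% of the genes tested here that had a promoter. CACGTG, an E-box, was in 7 of the 28 (25%), against 8.09% of all genes and 12.4% of those tested. Counted per window, CCAAT was in 64.9% of the 37 member windows and 37.4% of all windows. CACGTG was in 21.6% and 7.15%. Both strands were searched, and no match of 1 motif overlapped a match of another in these windows. A match is a description of the letters and not a shown binding site, and a window without one says only that these letters are not in it. The stretches below come from 3 genes of the mevalonate segment that were higher after LPS. They are shown because they hold the sterol element form, 137 bases before the start of Hmgcs1, and up to 4 CCAAT boxes in 1 stretch, in Mvk. They are written 5′ to 3′ on the strand of the gene, outside annotated exons, with the motifs in capitals (CCAAT appears as ATTGG where it lies on the other strand).
Hmgcs1 (+ strand, chr13:119690169.0-119690288.0): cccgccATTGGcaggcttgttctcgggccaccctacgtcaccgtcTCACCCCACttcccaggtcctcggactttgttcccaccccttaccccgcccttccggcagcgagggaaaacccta
Mvk (+ strand, chr5:114444149.0-114444268.0): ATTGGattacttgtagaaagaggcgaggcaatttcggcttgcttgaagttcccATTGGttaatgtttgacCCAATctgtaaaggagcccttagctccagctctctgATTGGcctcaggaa
Mvd (- strand, chr8:122443423.0-122443542.0): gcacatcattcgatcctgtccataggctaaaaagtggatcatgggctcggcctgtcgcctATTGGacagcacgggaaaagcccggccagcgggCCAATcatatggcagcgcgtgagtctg

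From squalene to cholesterol, all 11 enzymes were higher after LPS, against 36.1% of all genes tested. The log2 fold changes of the 11 were 0.97 to 2.70, with a median of 1.76. The largest change was that of Sqle, squalene epoxidase, the first oxygen-requiring and a rate-limiting step. It was at 18.01 CPM at rest and 82.1 CPM after LPS in ΔleftPAL, and at 12.2 and 114 CPM in ΔIRIS (2.70 ± 0.30, adjusted p = 0.00282 by edgeR). Cyp51, the lanosterol demethylase, was at 30.1 and 138.5 CPM in ΔleftPAL and 27.8 and 205 CPM in ΔIRIS (2.54 ± 0.21). Lss, which closes the sterol rings, rose from 17.7 to 70.3 CPM and from 12.7 to 93.8 CPM (2.44 ± 0.26). Fdft1, squalene synthase, which commits carbon to sterol, rose from 12.6 to 42.4 CPM and from 10.2 to 62.1 CPM (2.18 ± 0.25). Msmo1, an enzyme that removes the methyl groups at the fourth carbon of the ring, rose from 16.6 to 56.6 CPM and from 14.7 to 88.2 CPM (2.18 ± 0.24).

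The later steps changed less. Hsd17b7 and Nsdhl, which work beside Msmo1, rose by 1.76 ± 0.16 and 1.64 ± 0.20 on the log2 scale. The isomerase Ebp and the reductases Tm7sf2 and Dhcr7 rose by 1.23 ± 0.18, 1.24 ± 0.29 and 1.09 ± 0.19. Sc5d, the sterol desaturase, had the smallest change of the segment, from 18.3 to 35.4 CPM in ΔleftPAL and from 24.5 to 48.6 CPM in ΔIRIS (0.97 ± 0.13, adjusted p = 0.00209 by edgeR). Tm7sf2 had the fewest counts of the segment, 69 to 213 per library, and part of its sequence lies in transcripts of the neighbouring gene Vps51. The promoters of Hsd17b7 and Sc5d each hold an E-box and a CCAAT box, and are shown in the same way for that reason.
Hsd17b7 (- strand, chr1:169969242.0-169969361.0): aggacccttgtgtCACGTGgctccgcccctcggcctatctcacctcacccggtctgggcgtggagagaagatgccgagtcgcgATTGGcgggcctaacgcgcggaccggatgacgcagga
Sc5d (- strand, chr9:42264301.0-42264420.0): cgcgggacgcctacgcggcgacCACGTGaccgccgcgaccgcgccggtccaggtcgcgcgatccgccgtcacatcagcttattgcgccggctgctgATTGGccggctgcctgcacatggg

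**Figure D2:**
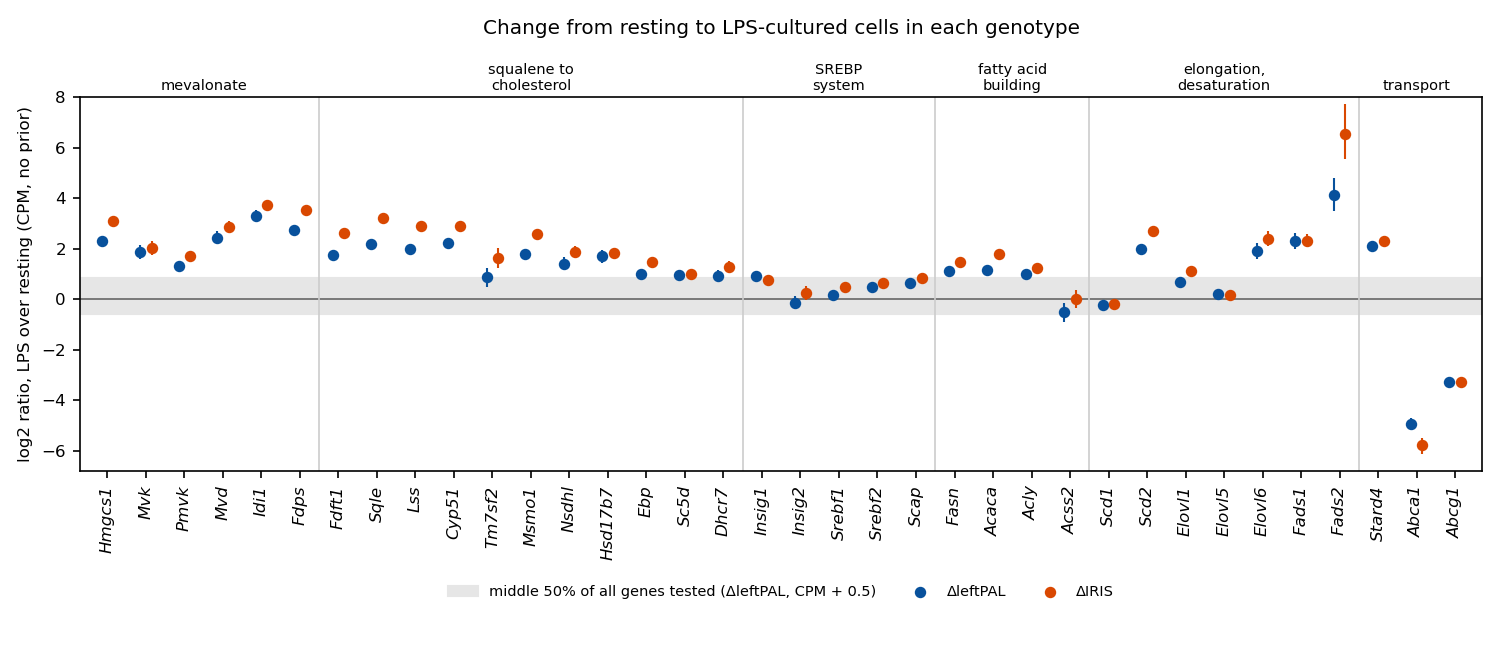
log2 ratio of LPS-activated over resting cells for each gene in each genotype, without a prior, with 95% Clopper-Pearson intervals of the reads (counting error only); the grey band spans the middle 50% of all genes tested in ΔleftPAL. All 17 genes of the mevalonate and sterol segments lie above 0 in both genotypes, and Abca1 and Abcg1 lie far below.

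The sensing system had smaller log2 fold changes than the sterol enzymes. Of its 5 genes, 3 were higher after LPS, against 36.1% of all genes tested, and the median over the 5 was 0.55. Insig1, itself a target of SREBP and the brake on it, went from 61.5 to 117 CPM in ΔleftPAL and from 97.4 to 164 CPM in ΔIRIS (0.84 ± 0.13, adjusted p = 0.00290 by edgeR). Scap rose from 46.4 to 72.7 CPM and from 38.9 to 69.5 CPM (0.74 ± 0.12). Srebf2, which encodes the SREBP that mainly drives sterol synthesis, rose from 87.9 to 121 CPM and from 88.0 to 137 CPM (0.55 ± 0.13, adjusted p = 0.0126). Srebf1, whose product mainly drives fatty acid synthesis, did not pass the test: its levels were 57.9 and 64.7 CPM in ΔleftPAL and 48.5 and 66.7 CPM in ΔIRIS (0.31 ± 0.13, adjusted p = 0.0906 by edgeR). In TPM, the length-scaled kallisto values deposited per transcript, summed here over the gene, Srebf1 instead went from 41.8 to 28.1 and from 34.5 to 27.3, so its direction depends on the measure. The median log2 change of all genes in TPM was -0.20 in ΔleftPAL and -0.18 in ΔIRIS. The Srebf1 transcript with the largest share, ENSMUST00000020846, went from 12.9 to 11.7 TPM in ΔleftPAL and from 10.0 to 11.9 TPM in ΔIRIS. Insig2, the second INSIG gene, was at 9.95 and 9.02 CPM in ΔleftPAL and 7.36 and 8.73 CPM in ΔIRIS (0.05 ± 0.21, adjusted p = 0.842), and in TPM went from 11.0 to 6.61 and from 12.2 to 6.58. The levels of the messages do not report how much SREBP protein was cut.

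Fatty acid building was higher in 3 of its 4 enzymes, against 36.1% of all genes tested, with a median of 1.20 over the 4. Acly, ATP citrate lyase, which delivers acetyl-CoA to the cytosol, went from 165 to 327 CPM in ΔleftPAL and from 165 to 389 CPM in ΔIRIS (1.12 ± 0.12, adjusted p = 0.00103 by edgeR). Acaca, the acetyl-CoA carboxylase that makes malonyl-CoA, rose from 52.6 to 118 CPM and from 44.6 to 151.5 CPM (1.46 ± 0.18). Fasn, the fatty acid synthase, rose from 106 to 231 CPM and from 95.6 to 262 CPM (1.29 ± 0.14, adjusted p = 0.000954). Acss2, which makes acetyl-CoA from acetate by the alternative route, was low and did not pass: 5.81 and 4.05 CPM in ΔleftPAL, and 4.95 CPM both before and after LPS in ΔIRIS (-0.26 ± 0.27, adjusted p = 0.427). The promoter of Fasn holds 3 CCAAT boxes, of which 2 overlap on opposite strands. Its RefSeq start lies upstream of the Fasn start in the annotation used for counting (chr11:120824178). The bases just before that counted start are therefore not in the window. The stretch is shown as the example of the fatty acid branch.
Fasn (- strand, chr11:120824548.0-120824667.0): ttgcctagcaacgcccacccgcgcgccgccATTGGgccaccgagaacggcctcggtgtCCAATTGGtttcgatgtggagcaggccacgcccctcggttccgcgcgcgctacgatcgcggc

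In elongation and desaturation 5 of the 7 genes were higher, against 36.1% of all genes tested. The log2 fold changes over the 7 were -0.22 to 5.14. The delta-9 desaturases, which make monounsaturated fatty acids, parted. Scd2 rose from 86.8 to 341 CPM in ΔleftPAL and from 75.1 to 481 CPM in ΔIRIS (2.33 ± 0.21, adjusted p = 0.000954 by edgeR). Scd1 was at 565 and 478 CPM in ΔleftPAL and 793 and 695 CPM in ΔIRIS (-0.22 ± 0.10, adjusted p = 0.119). The difference between these genes was not tested, and 8.14% of the 31-base stretches of Scd1 and 6.81% of those of Scd2 recur in other genes, Scd3 and each other among them. Per transcript length Scd1 had the highest level of the 36 in every library, at 151 and 207 TPM at rest and 108 and 152 TPM after LPS. In ΔleftPAL cells after LPS, Fdps stood next to it at 107 TPM.

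Fads2, the delta-6 desaturase at the entry to long polyunsaturated fatty acids, had the largest rise of the 36 genes. It had 21 counts (0.860 CPM) in resting ΔleftPAL and 8 counts (0.275 CPM) in resting ΔIRIS cells, and 398 and 739 counts (14.8 and 25.2 CPM) after LPS, a log2 fold change of 5.14 ± 0.63 (adjusted p = 0.00433 by edgeR). The size of that change rests on few resting reads, and Fads2 met the minimum of 50 counts on average only through the activated libraries, where it is high, so its call is a description. Fads1, the delta-5 desaturase next in that route, rose from 4.30 to 21.0 CPM and from 5.61 to 27.8 CPM (2.30 ± 0.17). Of the elongases, Elovl6, which lengthens the product of the fatty acid synthase, rose from 3.93 to 14.7 CPM and from 4.09 to 21.4 CPM (2.15 ± 0.22). Elovl1, which acts on very long chains, rose from 18.8 to 30.03 CPM and from 17.9 to 38.7 CPM (0.90 ± 0.17, adjusted p = 0.00612). Elovl5, the elongase of polyunsaturated chains, was at 47.6 and 54.9 CPM in ΔleftPAL and 51.7 and 57.4 CPM in ΔIRIS (0.18 ± 0.12, adjusted p = 0.238). In TPM Elovl5 went the other way, from 28.0 to 23.6 and from 28.2 to 24.1. The median log2 change of all genes was itself below 0 in TPM, at -0.20 in ΔleftPAL and -0.18 in ΔIRIS.

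The transport genes divided. Stard4, a soluble carrier that moves cholesterol between membranes, rose from 14.3 to 61.1 CPM in ΔleftPAL and from 13.8 to 67.9 CPM in ΔIRIS (2.20 ± 0.14, adjusted p = 0.000251 by edgeR). Abca1, the pump that loads cholesterol onto apolipoproteins, was at 160 CPM in resting and 5.20 CPM in activated ΔleftPAL cells, and at 167 and 3.002 CPM in ΔIRIS cells. It fell by 5.35 ± 0.27 on the log2 scale, a 40.8-fold lower level (adjusted p = 0.000265). Abcg1, which exports sterol to high-density lipoprotein, went from 85.2 to 8.72 CPM and from 126 to 12.9 CPM (a log2 change of -3.29 ± 0.13, adjusted p = 0.000154).

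These pumps are also made by macrophages, and myeloid markers fell in the same comparison, although the depletion of CD43-bearing cells removes many myeloid cells. Csf1r, the macrophage colony stimulating factor receptor, was at 4127 and 6532 counts at rest and 8 and 5 counts after LPS. Lyz2, lysozyme, went from 2374 and 4322 counts to 35 and 14 counts. Of the 8 myeloid markers 5 could be tested and 4 were lower. Among those lower, Csf1r, Lyz2 and Cd68 met the minimum for testing only through the resting libraries, so their calls are descriptions. S100a8 went from 86 and 20 counts to 0 in both activated libraries and S100a9 from 128 and 24 counts to 0, while Ly6g was at 1 and 0 counts already at rest. Itgam was the exception, at 13.1 and 5.20 CPM in ΔleftPAL and 10.5 and 15.4 CPM in ΔIRIS. Of the 5 markers of B cells 3 were lower (27.4% of all genes tested) and by far less. Cd79a, of the B cell receptor complex, was at 463 and 239 CPM in ΔleftPAL and 477 and 250.2 CPM in ΔIRIS. The part of the lower myeloid signal in the fall of Abca1 and Abcg1 was not tested.

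**Figure D3:**
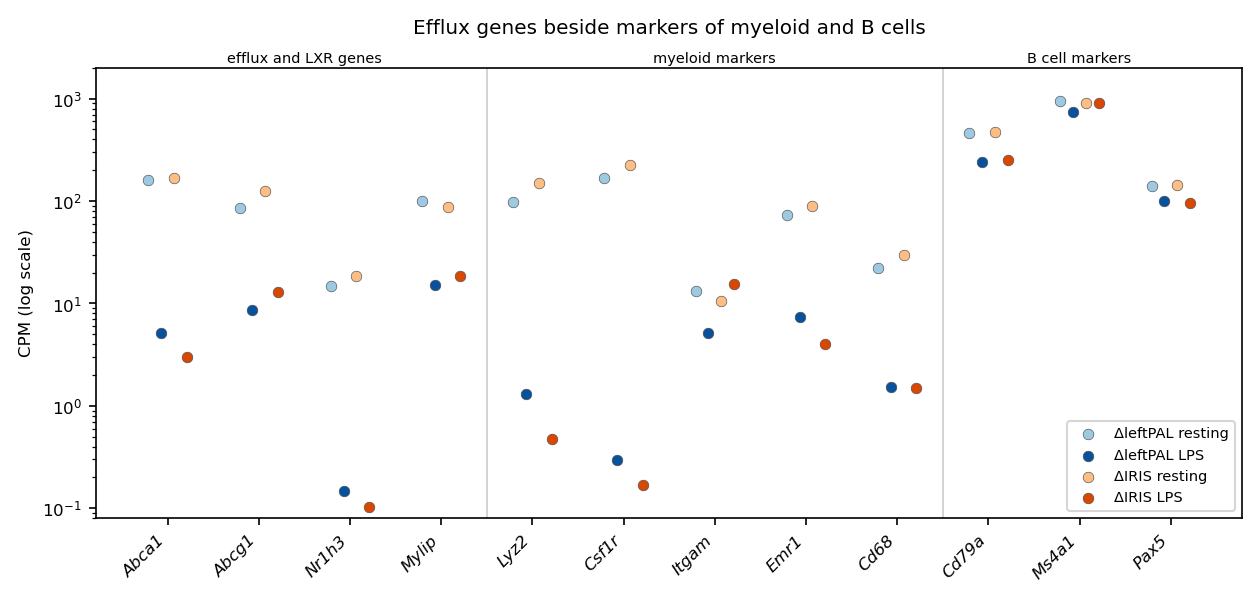
CPM on a log axis, 1 point per library, of Abca1, Abcg1 and the LXR genes Nr1h3 and Mylip beside myeloid and B cell markers (Emr1 encodes F4/80). Abca1 and Abcg1 fell after LPS, as did Csf1r, Lyz2, Emr1 and Cd68, while Itgam was lower after LPS in ΔleftPAL and higher in ΔIRIS, and the B cell markers Cd79a and Pax5 fell by less than these and Ms4a1 did not pass the test.

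The other genes of these pathways were taken from lists by function, and their counts stand beside 36.1% of all genes tested that were higher and 27.4% that were lower. Among 12 regulators of SREBP and LXR, 6 were lower, 1 higher and 5 not called, with a median of -0.56. Those lower included Nr1h3, which encodes LXRα and went from 360 and 540 counts to 4 and 3 counts (-7.01 ± 0.34, adjusted p = 0.000158 by edgeR), Mylip, an LXR target that degrades lipoprotein receptors (-2.47 ± 0.16), and Rxra, a partner of LXR (-2.18 ± 0.22). The size of the Nr1h3 change rests on few reads after LPS. Nr1h3 met the minimum for testing only through the resting libraries, where it is high, so its call is a description. Nr1h3 is known from macrophages as well, and its fall stands beside the same fall of myeloid markers, whose part was not tested. Lpcat3, a phospholipid remodelling enzyme, was higher (1.13 ± 0.17). Of 11 tested genes of sterol trafficking and esterification, 6 were lower and 2 higher. Gramd1a and Gramd1b, which carry sterol from the plasma membrane to the endoplasmic reticulum, changed by -1.50 ± 0.12 and -1.32 ± 0.19, and Lipa, the lysosomal acid lipase that frees cholesterol from its esters, by -1.37 ± 0.13. Lbr, a nuclear envelope protein that is also a sterol reductase, rose by 0.74 ± 0.11, and Osbp, an oxysterol-binding exchanger, by 0.42 ± 0.12.

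Against the same shares of all genes, the isoprenoid branch rose in 9 of 13 genes and fell in 2, with a median of 0.82. Acat2, which makes the acetoacetyl-CoA that Hmgcs1 uses, stood out in it, from 10.9 to 62.1 CPM in ΔleftPAL and from 7.81 to 87.2 CPM in ΔIRIS (2.99 ± 0.28, adjusted p = 0.00133 by edgeR). Pdss1, of ubiquinone synthesis, and Dhdds, of dolichol synthesis, rose by 1.69 ± 0.18 and 1.35 ± 0.14. Ggps1, which makes the geranylgeranyl donor, and Rabggta, a subunit of the enzyme that uses it, were lower (-0.40 ± 0.13 and -0.82 ± 0.15). Among 14 tested further fatty acid genes 10 were higher and 1 lower: Fabp5, a fatty acid binding protein, rose most (2.41 ± 0.24), then Mecr, of mitochondrial fatty acid synthesis (1.45 ± 0.18), and Ptplad1, a dehydratase of the elongation cycle (1.399 ± 0.13), while Acsl1, which activates fatty acids, fell by 1.34. In fatty acid oxidation 11 of 17 genes were higher and 1 lower (36.1% and 27.4% of all genes), with a median of 0.61, beside 1.85 for the 28 synthesis enzymes among the 36. Etfa, Etfb and Eci2 rose by 1.56 ± 0.14, 1.18 ± 0.14 and 0.81 ± 0.14, while Cpt1a, the gate of fatty acids into mitochondria, went from 40.3 to 13.1 CPM and from 33.9 to 12.04 CPM (-1.56 ± 0.14, adjusted p = 0.000583 by edgeR).

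**Figure D4:**
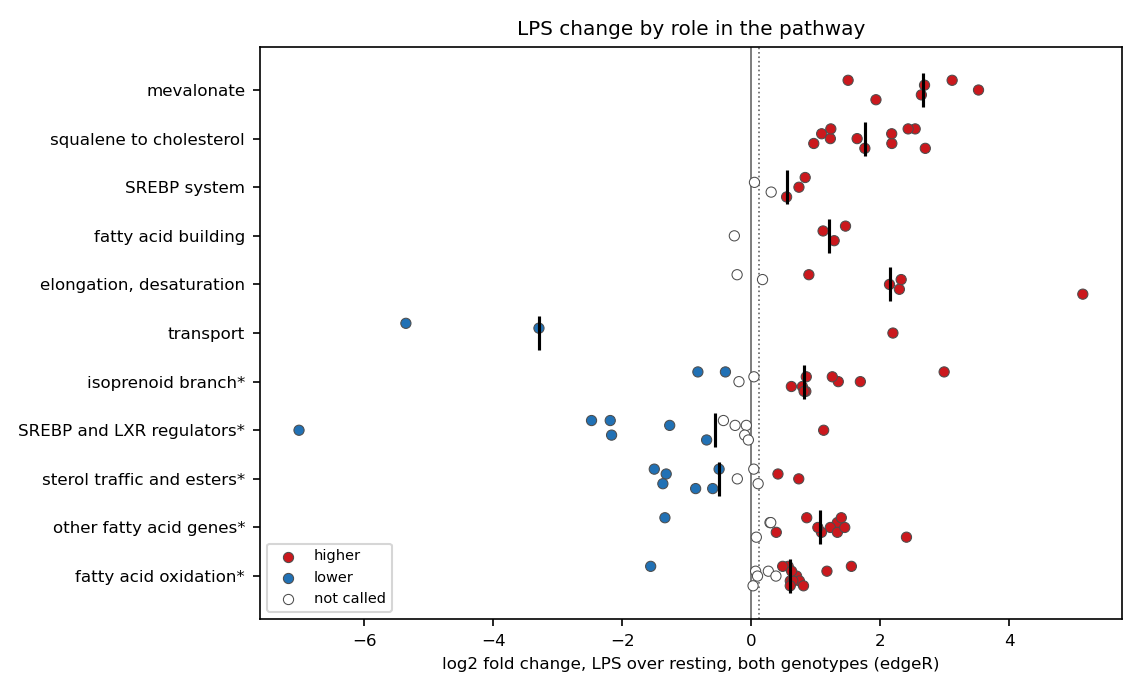
log2 fold change from resting to LPS-activated cells over both genotypes (edgeR), 1 point per gene, by role; red and blue points passed the test, open points did not, black bars are list medians, the dotted line is the median of all genes (0.12), and lists marked * are not among the 36 genes. Medians run from 2.67 in the mevalonate segment to -3.29 in transport, where 2 of 3 genes fell.

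The genotypes were compared next, library against library. After LPS, 32 of the 36 genes stood higher in ΔIRIS than in ΔleftPAL, by any amount, whereas 54.9% of all genes did. Their median log2 ratio was 0.37, and the median over all genes tested was 0.03. The sizes were modest: 4 genes were at least 1.5-fold higher in ΔIRIS (1.96% of all genes), namely Hmgcs1, Idi1, Msmo1 and Fads2, and 1 was at least 1.5-fold lower (4.50% of all genes), Abca1. The count of 4 depends on the processing. It was 9 with kallisto estimated counts, 2 with TMM from the tested genes or with a prior of 5 CPM, and 1 with TPM. Abca1 was not counted as lower with that prior or with TPM. There is no replicate check, so the spread between mice or cultures of 1 genotype is unknown, and it can be larger than these ratios.

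By segment, the ratio after LPS was above 0 for 5 of 6 mevalonate genes, all 11 sterol genes, all 4 fatty acid building genes and all 7 elongation and desaturation genes. Each count stands beside 54.9% of all genes tested. All come from the same pair of libraries, so the segments are not separate checks of each other. The log2 ratio of Hmgcs1 was 0.59, with a 95% Clopper-Pearson interval (counting error only) of 0.55 to 0.64, that of Idi1 0.60 (0.52 to 0.69) and that of Msmo1 0.63 (0.55 to 0.73). Below the 1.5-fold mark, Cyp51 was at 0.56, Fdft1 at 0.55, Scd1 and Abcg1 at 0.54 each, Elovl6 at 0.53, Scd2 at 0.50, Insig1 at 0.49, Nsdhl at 0.48 and Sqle at 0.47. Fasn, at 0.18 (0.13 to 0.23), and Acly, at 0.25 (0.21 to 0.29), were closer to equal. Mvk was the synthesis gene on the other side, at -0.23 (-0.41 to -0.07). The sensing genes were near equal after LPS apart from Insig1 at 0.49, with Scap at -0.06, Insig2 at -0.04, Srebf1 at 0.04 and Srebf2 at 0.18. Abca1 was at 140 counts in ΔleftPAL and 88 counts in ΔIRIS, and Abcg1 at 235 and 378 counts, so the pumps differed in opposite directions.

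At rest the picture was different. Of the 36 genes, 14 were higher in ΔIRIS, by any amount, as were 50.04% of all genes, and the median log2 ratio was -0.13. Only Insig1 was at least 1.5-fold higher (6.74% of all genes), at 61.5 CPM in ΔleftPAL and 97.4 CPM in ΔIRIS, and only Fads2 at least 1.5-fold lower (4.27% of all genes), with 21 and 8 counts. Among the sterol genes, Sqle (-0.54), Tm7sf2 (-0.54), Lss (-0.46) and Ebp (-0.44) were lower in ΔIRIS at rest, as was Fdps (-0.45). Insig1 (0.66), Abcg1 (0.57), Scd1 (0.49) and Sc5d (0.41) were higher at rest and remained above 0 after LPS. Markers of other cells differed between the resting libraries too. Of the 5 myeloid markers tested 4 were higher in ΔIRIS, with a median log2 ratio of 0.41, while S100a8 and S100a9, not tested, were lower. Of the 6 erythroid markers 1 was higher in ΔIRIS, with a median of -0.44. The part of other cells in the ratios at rest was not tested. No gene among the 36 was at least 1.5-fold apart in the same direction in both conditions. The share of all genes for this overlap is not given, and few genes passed the mark in either condition alone. It is therefore not a result about the 36.

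**Figure D5:**
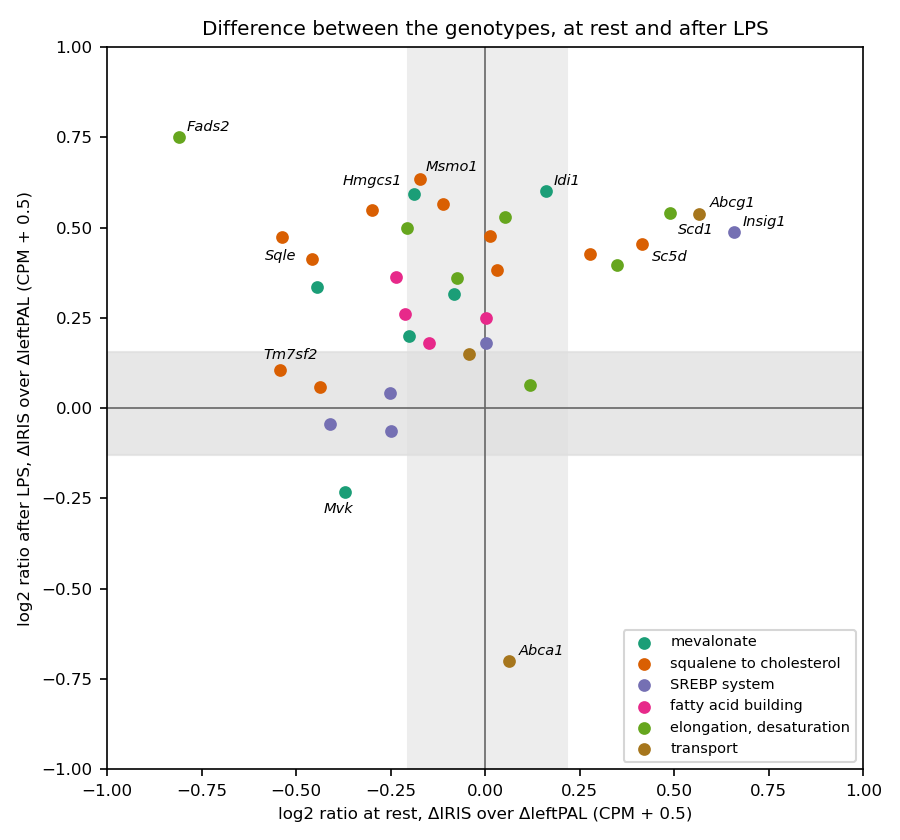
log2 ratio of ΔIRIS over ΔleftPAL for each of the 36 genes, at rest (horizontal axis) and after LPS (vertical axis), coloured by role; each ratio compares 2 libraries, and the grey bands span the middle 50% of all genes tested on each axis. After LPS 32 genes lie above 0, while at rest 14 do, and Abca1 lies lowest after LPS.

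Both comparisons enter the size of the LPS response, the log2 change in ΔIRIS minus that in ΔleftPAL. It was above 0 for 32 of the 36 genes (50.97% of all genes), with a median of 0.40, and 0.01 over all genes. The response was at least 1.5-fold greater in ΔIRIS for 11 genes (6.18% of all genes): Hmgcs1, Fdps, Fdft1, Sqle, Lss, Cyp51, Tm7sf2, Msmo1, Acaca, Scd2 and Fads2. The signed change was at least 1.5-fold lower in ΔIRIS for 1 gene (9.36% of all genes), Abca1, whose fall was deeper there. The myeloid markers went the same way: of the 5 tested, the difference was above 0 for 1, Itgam, with a median of -0.66. Their part in the difference of Abca1 was not tested. The widest gap among genes of more than 100 counts in every library was that of Sqle, whose log2 change was 2.16 in ΔleftPAL and 3.17 in ΔIRIS. Mvk (0.14), Hsd17b7 (0.15), Fads1 (0.05) and Sc5d (0.04) changed to nearly the same extent in both. The difference of the responses leaves no degrees of freedom and was not tested.

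Other features of the activated libraries differed between the genotypes as well. After LPS all 6 plasmablast markers were lower in ΔIRIS, whereas 54.9% of all genes were higher there, with a median log2 ratio of -0.50 and summed levels of 1279 CPM against 1815 CPM in ΔleftPAL. Xbp1, which drives the secretory programme, was at 390 CPM in ΔleftPAL and 260 CPM in ΔIRIS. Of the 8 markers of dividing cells 7 were higher in ΔIRIS (54.9% of all genes), with a median of 0.10 and log2 ratios of -0.01 to 0.32. The other lipid lists had medians after LPS of 0.18 (isoprenoid branch), 0.09 (other fatty acid genes), 0.05 (SREBP and LXR regulators), 0.01 (fatty acid oxidation) and -0.06 (sterol trafficking). Of the 5 myeloid markers tested, 1 was higher in ΔIRIS after LPS (54.9% of all genes), with a median of -0.25. The part of plasmablast, myeloid or dividing cells in the ratio of the 36 genes was not tested.

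The transcripts of the members, as kallisto assigned them, were also described. For Lss, the transcript ENSMUST00000162848 held 38.8% and 44.3% of the gene's TPM at rest and 11.5% and 9.87% after LPS in ΔleftPAL and ΔIRIS, while ENSMUST00000048678 went from 36.3% and 25.2% to 68.0% and 69.9%. The TPM of the first changed little, from 2.63 to 2.21 in ΔleftPAL and from 2.46 to 2.32 in ΔIRIS, and that of the other rose from 2.47 to 13.0 and from 1.403 to 16.5. For Stard4, ENSMUST00000141617 took 65.1% and 47.1% at rest and 24.1% and 22.2% after LPS, and ENSMUST00000025236 went from 32.6% and 35.5% to 51.7% and 56.2%. In both genes, then, the rise in total level came with a change in the transcripts credited, in the same direction in both genotypes. Insig2 was split over 14 annotated transcripts at low level, and its shares varied between the resting libraries themselves, with ENSMUST00000162582 at 13.1% in ΔleftPAL and 41.6% in ΔIRIS. These shares are estimates without replicates.

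Some members share sequence with other genes, and their levels are less certain. Of all stretches of 31 bases in their transcripts, 33.4% recurred in other genes for Acaca (mostly Gm5182), 27.9% for Fdps (Gm43738), 18.8% for Idi1 (Gm13502) and 14.3% for Fdft1 (Gm6781). The gene counts of Idi1 were 0.392 to 0.424 of the kallisto estimated counts for that gene, against a median of 0.989 to 0.990 over the members. Mvd and Lss had lower ratios at rest (0.694 to 0.762) than after LPS (0.946 to 0.979), so their rise is larger in gene counts than in kallisto values: Mvd went from 6.31 to 21.9 TPM in ΔleftPAL and from 5.64 to 26.4 TPM in ΔIRIS.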

How the data were processed

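Paired reads of 150 nt from ribosome-depleted, stranded libraries had been mapped by the authors with STAR 2.4.0a to mm10 with Ensembl release 77. The authors deposited raw counts of fragments per gene name (featureCounts, Subread 1.4.6-p1, primary alignments of multi-mapping reads included), kallisto 0.42.3 estimated counts per transcript, and the TPM values kallisto gives, scaled to a common sum in each library. The paper names strand setting 1 for a kit that marks strand. Over all genes tested, gene counts were a median of 0.988 to 0.989 of the kallisto estimated counts, so no loss of reads to that setting was seen. The row without a gene name (0.00876 to 0.0264% of counts) was left out.

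The 36 genes and all lists were chosen with earlier results of these data known, so they are described by counts beside those over all genes. LPS and resting libraries were compared with edgeR 4.0.16 (R 4.3.3) by its robust quasi-likelihood test, with genotype as a term, TMM scaling over all named genes and Benjamini-Hochberg adjustment over 11286 genes (mean of at least 50 counts; called at 0.05). The 4 libraries leave 1 residual degree of freedom per gene, pooled over genes (median prior degrees of freedom 4.35). The p-values measure only the disagreement of the 2 genotypes. Other log2 ratios used CPM + 0.5, which understates changes of low genes, with exact 95% Clopper-Pearson intervals computed without that prior, covering counting error only. Of the B cell markers, 5 are reported here and another is not. The code was tested on simulated data. By rule the text could name all 36 genes, up to 3 called genes per direction from each other list and the first 3 of each marker list, and not all of the last are named. Cd68, Emr1, Ly6g, S100a8, S100a9, Irf4 and Pax5 lie outside this rule and were named after their values were seen. The alternatives tried were unscaled library totals, size factors and the Wald test of DESeq2 1.42.0, TMM without immunoglobulin genes, kallisto values, minimums of 10, 200 or no counts beyond 1, no genotype term, a fit that was not robust, and priors of 0 and 5 CPM. Scaling by TMM from tested genes, or without the 276 genes that fell at least 16-fold in both genotypes, was added after seeing the data. Promoters are RefSeq's on GRCm38.p6, and exons and 31-base stretches come from GENCODE M21. In 34 of the 37 member windows, bases after the RefSeq start were found near the beginning of a GENCODE transcript of that gene. Python 3.11.15, pandas 2.3.3, scipy 1.17.1 and numpy 2.4.6 were used.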

Additional observations from a re-analysis of the deposited data

Results flagged for a closer look

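Among the 36 genes and all tested cell type markers, the LPS change had opposite signs in the genotypes for 5. Only Insig2 of these is among the 36 genes, and the others are markers. The share of all genes tested with opposite signs is not given, so the count cannot be called high or low. Genes of the other pathway lists were not screened in this way. Insig2 was slightly lower after LPS in ΔleftPAL and higher in ΔIRIS, a difference of 0.37 on the log2 scale. Itgam, a myeloid marker that activated B cells can also carry, was lower after LPS in ΔleftPAL and higher in ΔIRIS, a difference of 1.79. Sdc1, which encodes the plasma cell antigen CD138, was higher after LPS in ΔleftPAL and lower in ΔIRIS, a difference of -0.90. Irf4, a transcription factor of plasma cell formation, was higher in ΔleftPAL (285 to 458 CPM) and lower in ΔIRIS (604 to 392 CPM), a difference of -1.31. Ms4a1, which encodes CD20, was lower in ΔleftPAL (946 to 748 CPM) and level in ΔIRIS (915 to 916 CPM), a difference of 0.34. With 1 library per group none of these differences was tested.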

How the results depend on the processing

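The count of the 36 genes higher after LPS was 28 to 30 and that lower 2 or 3 under every scaling, minimum and test run, and with a minimum of 200 counts 34 genes could be tested. Insig2 reversed, to -0.015 with total counts and -0.086 with TMM from the tested genes. Srebf1 passed with kallisto estimated counts (log2 fold change 0.45) and Scd1, as lower, with TMM from the tested genes (-0.36). That scaling moved the median of all genes from 0.12 to -0.02 and, since a scaling shifts every gene alike, that of the 36 genes by the same amount, from 1.48 to 1.35. In TPM the median LPS change of the 36 genes was 0.92 in ΔleftPAL and 1.11 in ΔIRIS, and that of all genes -0.20 and -0.18. The genotype counts at 1.5-fold were less firm. After LPS, genes higher in ΔIRIS numbered 2 with TMM from the tested genes, 9 with kallisto estimated counts, 2 with a prior of 5 CPM and 1 with TPM, and genes lower numbered 0 with that prior and 0 with TPM. At rest, genes lower numbered 2 without a prior and 0 with 5 CPM. The deeper fall of Abca1 in ΔIRIS was not counted with 5 CPM or TPM (0 genes each). The cause of these shifts was not tested. Genes above 0 after LPS in ΔIRIS numbered 29 to 33 and those with a greater response 31 to 33 under the scalings and priors run. Depth limits Fads2 at rest, with 21 and 8 counts.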
